A study of Rattus norvegicus with 20 samples.

Results

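The RT1 complex is the major histocompatibility complex of the rat, and the Ly49 genes encode lectin-like receptors of natural killer cells. All rat genes whose present symbol starts with RT1- or Ly49 were taken, together with B2m, Cd74, Ciita, Tap1, Tap2, Tapbp, Psmb8 and Psmb9, which serve antigen presentation. They were found through the transcript accession of each probe. This gave 66 probes for 55 genes, out of 30335 probes in all, of which those with a symbol cover 15699 genes. RefSeq lists 67 RT1- and 17 Ly49 symbols for the rat, of which 38 and 9 had a probe. Probes well above background on at least 4 arrays were kept, which left 55 member probes for 48 genes among 23258 probes. The members read 14 class I genes of the A and C/E groups with 17 probes kept of 17, 15 class I genes of the M, N, S and T groups with 15 kept of 19, 9 class II genes with 7 kept of 11, 9 Ly49 genes with 8 kept of 11, and the 8 partners with 1 probe each.

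The arrays measured RNA of whole ovaries from female Sprague-Dawley rats, an outbred stock, killed at 46 days of age, with 1 animal per array. The animals came from independent litters. Their dams ate a brominated flame retardant mixture from at least a week before mating until the pups were weaned at day 21. By the labels the mixture was made of polybrominated diphenyl ethers, with DE-71 at 52.1%, DE-79 at 0.4% and BDE-209 at 44.2%, plus hexabromocyclododecane at 3.3%. The 5 controls are offspring of dams on the diet with 0 mg/kg. The other diets had 0.75 mg/kg of the mixture for the dose of 0.06 mg/kg/day (4 offspring), 250 mg/kg for 20 mg/kg/day (5 offspring) and 750 mg/kg for 60 mg/kg/day (6 offspring). The doses are nominal and per body weight of the dam. Replicate 4 at 0.06 mg/kg/day was not analysed here.

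Every value below is log2 of the processed Cy3 signal minus log2 of the 75th percentile of the same array, unless it is called a difference, and a difference is a log2 dose minus 0 mg/kg/day. No probe's level was set against that of another probe. The arrays lay on 3 slides that each held all 4 dose groups, and 19.2% of the kept probes differed between slides in limma at a Benjamini-Hochberg adjusted p under 0.05, among them 5 members: Tapbp, RT1-M1-5, RT1-M4, RT1-N2 and RT1-M5. The ovary markers Cyp11a1, Star, Inha and 7 others had a probe above background, and their mean level was 1.82 to 2.33 at 0, 1.67 to 2.23 at 0.06, 1.41 to 1.91 at 20 and 1.73 to 2.53 at 60 mg/kg/day. In whole tissue, fewer cells of a type and less RNA per cell cannot be told apart.

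Class I molecules pair an RT1 heavy chain with B2m and show peptides from inside the cell to T cells and natural killer cells, while class II molecules pair an alpha and a beta chain and show peptides taken up by macrophages, dendritic cells and B cells. Both kinds are highly polymorphic, the number of class I genes differs between rat haplotypes, and many copies are alike in sequence. Ly49 receptors bind class I molecules, and their genes form a second variable cluster, on another chromosome. In these data 43 member genes were annotated on chromosome 20 and the 9 Ly49 genes on chromosome 4, with Ciita on 10, Cd74 on 18 and B2m on 3. In the RefSeq annotation 5 RT1 genes lie inside the span of another: RT1-CE10 in RT1-CE11, RT1-CE13 in RT1-CE12, RT1-CE6 and RT1-CE7 in both RT1-CE4 and RT1-CE5, and RT1-T24-2 in RT1-T24-4. A probe for one such gene may read its neighbour or a near copy. Probe sequences were not used here, so a lower signal from fewer transcripts and one from an allele that matches the probe less well cannot be told apart.

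Class II genes are known to be driven through a conserved upstream module that ends in a Y box, and class I genes through an interferon response element and an NF-kB site, and the windows below show these in 5 genes on which the results turn. They are the 150 bases before the outermost annotated gene start in the RefSeq promoter table, read 5′ to 3′ on the gene's strand in build GRCr8, and they are reference sequence, not that of these animals. Capitals mark the Y box core CTGATTGG or its reverse complement, the interferon response core TTTCACTT and the NF-kB core GGGATTCCC.
RT1-Da, alpha chain of RT1-D, chr20:4515243-4515392, plus strand: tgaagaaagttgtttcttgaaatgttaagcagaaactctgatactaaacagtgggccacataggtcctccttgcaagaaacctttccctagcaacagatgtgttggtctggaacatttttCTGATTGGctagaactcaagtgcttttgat
RT1-Db1, beta chain of RT1-D, chr20:4560183-4560332, minus strand: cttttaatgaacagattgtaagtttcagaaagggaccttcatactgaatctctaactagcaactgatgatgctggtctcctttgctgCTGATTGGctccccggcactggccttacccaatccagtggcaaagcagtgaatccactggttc
RT1-Bb, beta chain of RT1-B, chr20:4604119-4604268, minus strand: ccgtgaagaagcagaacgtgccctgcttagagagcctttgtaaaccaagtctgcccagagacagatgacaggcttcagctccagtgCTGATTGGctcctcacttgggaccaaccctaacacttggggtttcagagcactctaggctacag
RT1-CE5, class I, chr20:3484131-3484280, minus strand: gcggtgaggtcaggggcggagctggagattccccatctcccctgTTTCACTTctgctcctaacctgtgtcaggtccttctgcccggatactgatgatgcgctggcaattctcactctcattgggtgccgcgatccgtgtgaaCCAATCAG
RT1-CE10, class I, chr20:3385064-3385213, minus strand: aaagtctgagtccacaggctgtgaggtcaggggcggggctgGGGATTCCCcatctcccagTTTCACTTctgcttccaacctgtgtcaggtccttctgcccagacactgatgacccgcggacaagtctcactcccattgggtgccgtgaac

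Over the 250 upstream bases on both strands, the Y box core was in 6 of 8 class II promoters and 6 of 13 promoters of the class I A and C/E groups, against 3.19% of 33469 promoters in all. The interferon response core was in 9 of those 13 class I promoters, 0 of 8 class II and 2 of 9 Ly49 promoters, against 1.49% of all. The NF-kB core was in 7 of the 13 and in 0 of 8 class II and 0 of 9 Ly49 promoters, against 0.272% of all. No motif overlaps another in the windows shown. RT1-CE5 and RT1-CE10 were 69.4% identical over 250 bases, while each of the class II promoters shown was 46.4% to 52.0% identical with every other one shown. These matches are letters in a reference window, and the shared letters of related copies are not independent of each other.

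The members varied more within dose groups than the median probe did. The median SD within dose groups was 0.405 log2 over the 55 kept member probes, against 0.275 over all kept probes. A SD above 0.667, the 90th percentile of all kept probes, was seen in 14 of 55 member probes (25.5%). These 14 were 5 of 8 Ly49 probes, 5 of 15 of the M, N, S and T groups and 4 of 17 of the A and C/E groups, with 0 of 7 class II and 0 of 8 partner probes. Dim probes vary more on any array. Among probes well above background on all 20 arrays, 9 of 42 members (21.4%) lay above the 90th percentile of such probes, and the median SD was 0.331, against 0.244.

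**Figure D1:**
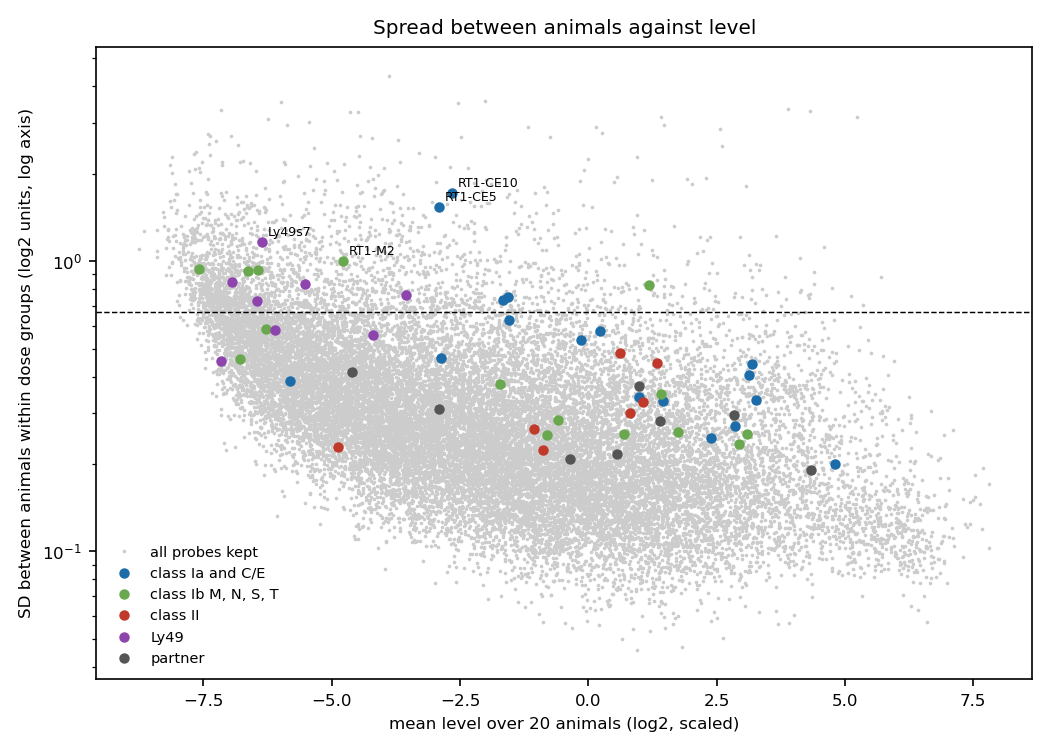
The SD within dose groups (log2, log axis) of each kept member probe is plotted against its mean level over 20 arrays, by role, with the 90th percentile of all kept probes, 0.667, as a dashed line. Class II and partner probes all lie below the line, and 5 of 8 Ly49 probes lie above it.

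The median SD between the spots of a member probe on an array was 0.0413 log2 over 800 pairs of probe and array, which covers neither labelling, hybridisation nor slide. The median SD over the 20 animals was 0.83 for Ly49 probes, 0.42 for the A and C/E groups, 0.35 for the M, N, S and T groups, 0.29 for class II and 0.27 for the partners.

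**Figure D2:**
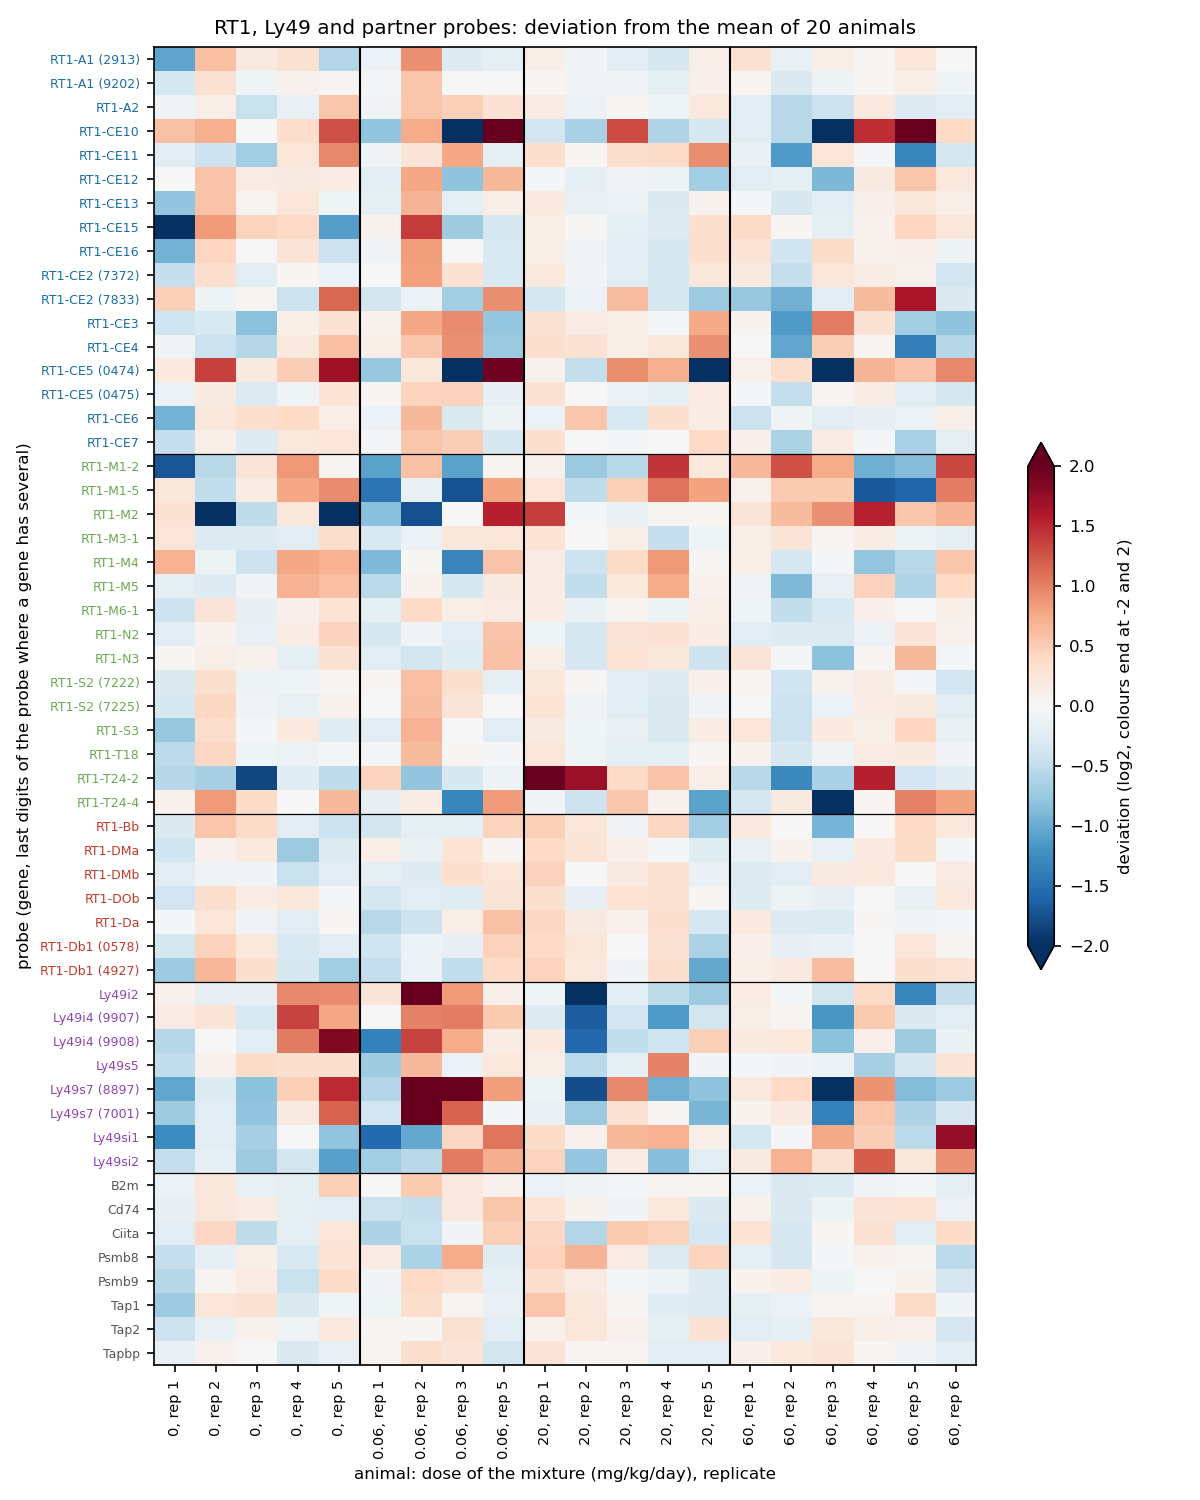
The difference of each animal from the probe's mean over 20 animals (log2, colour) is shown for the 55 kept member probes in rows, grouped by role, and the 20 animals in columns, grouped by dose. The 5 largest differences are single cells in the rows of RT1-CE10, RT1-CE5 (dimmer probe) and RT1-T24-2, and the next is a cell of Ly49s7. The colours are cut at both ends of the scale, so all cells beyond it look alike and their order is not visible.

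Jumps between animals were sought as a gap of at least 1 log2 in the sorted values of a probe with at least 2 animals on each side, after values below background were raised to the lowest measurable signal of their array. Such a gap was present in 2 of 55 member probes (3.64%), against 1.75% of all kept probes. Both were class I probes of the C/E group, RT1-CE10 and the dimmer probe of RT1-CE5. With a single animal on one side allowed, a setting chosen after seeing the data, there were 5 of 55 (9.09%), against 3.52%, the others being RT1-T24-2, Ly49s7 and Ly49i2.

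RT1-CE10 is a class I gene of the C/E group whose role is not well known. Its levels were -2.07, -1.95, -2.65, -2.31 and -1.38 at 0 mg/kg/day and -3.46, -1.93, -6.16 and -0.49 at 0.06 mg/kg/day. They were -3.05, -3.31, -1.37, -3.27 and -2.98 at 20 mg/kg/day, and at 60 mg/kg/day the lowest was -6.96, the median -2.58 and the highest -0.41. Replicate 3 at 60 mg/kg/day and replicate 3 at 0.06 mg/kg/day stood below all others, with a gap of 2.70 log2, or 6.52-fold, and the remaining 18 animals overlapped across doses. The probe was well above background on 19 arrays, all but that of replicate 3 at 60 mg/kg/day. Both spots of the probe were low in these 2 animals, at -6.25 and -6.08 in the one at 0.06 mg/kg/day and at -7.36 and -6.56 in the one at 60 mg/kg/day.

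The dimmer RT1-CE5 probe gave -2.72, -1.55, -2.74, -2.43 and -1.22 at 0 mg/kg/day and -3.68, -2.69, -6.04 and -0.97 at 0.06 mg/kg/day. It gave -2.84, -3.39, -1.99, -2.20 and -5.61 at 20 mg/kg/day, and a lowest of -6.38, a median of -2.45 and a highest of -1.95 at 60 mg/kg/day. Now 3 animals were low, 1 at each dose above 0, by a gap of 1.92 log2 or 3.80-fold, and the probe was well above background on all 20 arrays. Without replicate 3 at 0.06 or at 60 mg/kg/day only this probe kept a gap with 2 animals below it. The other probe of RT1-CE5 did not follow. It ranged over 0.95 log2 in all 20 animals, and replicate 3 at 0.06 mg/kg/day was its highest, at 2.85.

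The probes just outside the limit of 1 log2 were RT1-T24-2 with a gap of 0.98 and RT1-M2 with 0.92, followed by RT1-T24-4 with 0.66.

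The same 3 animals, replicate 3 at 0.06, replicate 5 at 20 and replicate 3 at 60 mg/kg/day, were the lowest 3 in 7 of the 23258 kept probes. In 3 of these the gap to the next animal was over 0.2 log2, and all 3 were RT1 class I genes of chromosome 20: RT1-CE5 with 1.92, RT1-T24-4 with 0.66 and RT1-CE12 with 0.48. They were the highest 3 in 3 probes, 0 of them with such a gap. The animals lay on slides 2, 3 and 2, and none was a control. They were singled out by their RT1-CE5 signal, so the count is a description and no test was made on it.

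RT1-T24-4, a class I gene of the T group, read 1.26, 2.03, 1.56, 1.17 and 1.83 at 0 mg/kg/day and 1.02, 1.33, -0.12 and 2.04 at 0.06 mg/kg/day. It read 1.12, 0.78, 1.73, 1.27 and 0.11 at 20 mg/kg/day, and from -1.01 through a median of 1.30 to 2.17 at 60 mg/kg/day. Apart from the low animal in each dosed group, every value lay between 0.78 and 2.17, and dose groups overlapped.

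RT1-CE12 read -2.88, -2.30, -2.70, -2.69 and -2.72 at 0 mg/kg/day and -3.08, -2.10, -3.68 and -2.20 at 0.06 mg/kg/day. With 20 mg/kg/day it read -2.89, -3.05, -2.94, -2.97 and -3.57, and at 60 mg/kg/day -3.77 at the lowest, -2.88 at the median and -2.31 at the highest. The 5 animals at 20 mg/kg/day were all below the 5 controls, by little except in replicate 5, and the difference was -0.43 ± 0.28 (SE) with an unadjusted limma p of 0.145. RT1-CE3, also of the C/E group, went the other way in the same animals: in order of dose it read -0.59, -0.77 and -0.51 in those 3 low animals, which were among its 4 highest.

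**Figure D3:**
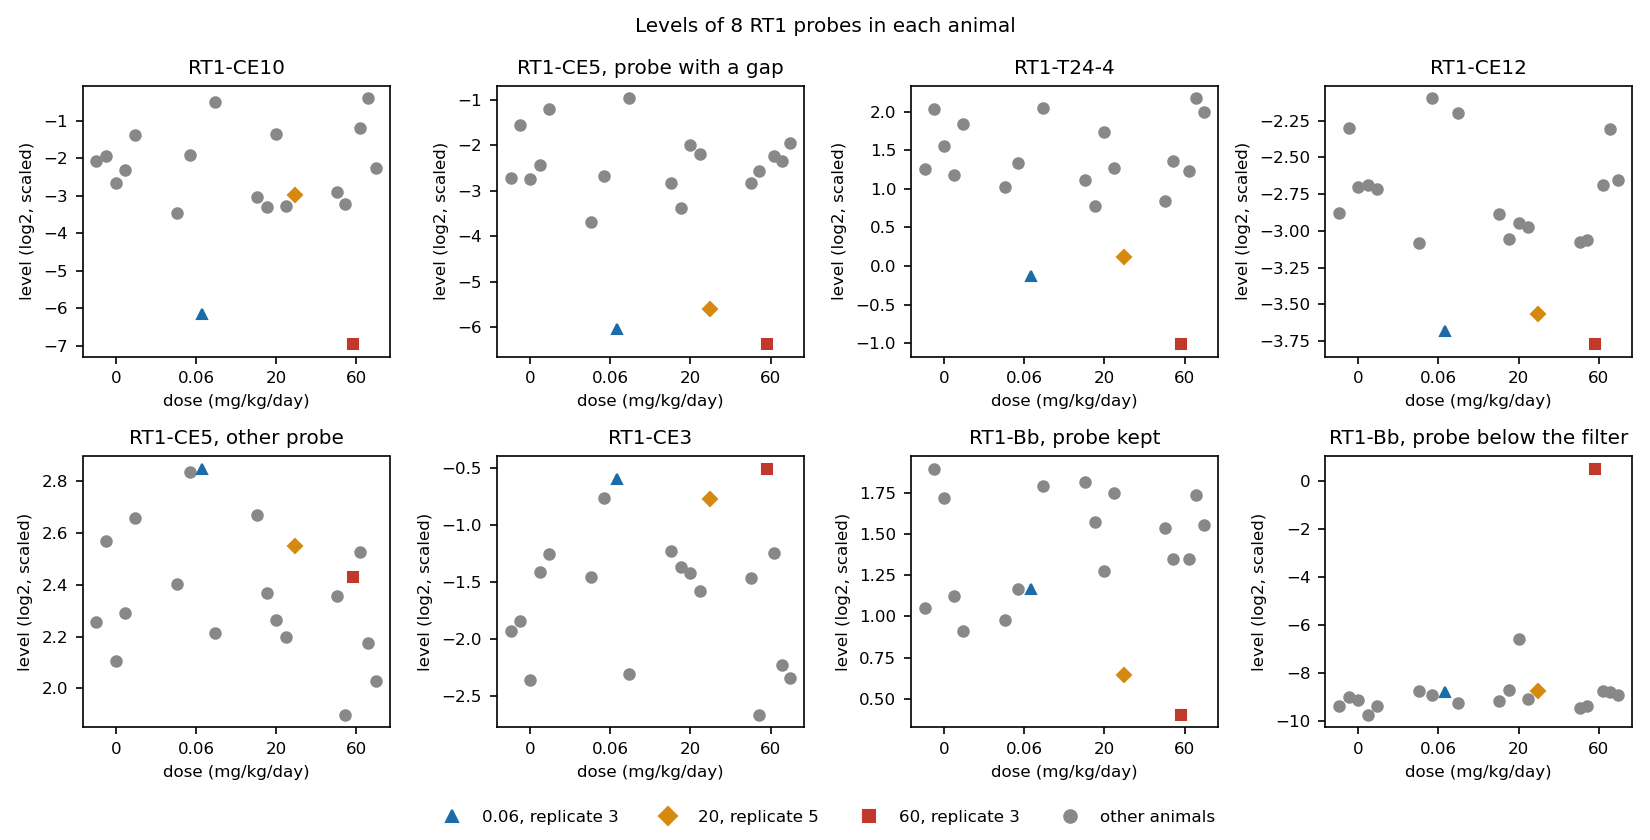
Levels (log2 relative to the array's 75th percentile) of 8 RT1 probes are shown for each of the 20 animals, ordered by dose, with 3 animals marked: replicate 3 at 0.06, replicate 5 at 20 and replicate 3 at 60 mg/kg/day. The marked animals are low in RT1-CE5 (dimmer probe), RT1-T24-4 and RT1-CE12, and only those at 0.06 and 60 mg/kg/day are low in RT1-CE10.

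A second RT1-Bb probe, outside the filter, gave a signal in a single animal. RT1-Bb encodes the beta chain of the class II molecule RT1-B. This probe read 0.49 in replicate 3 at 60 mg/kg/day, in both spots, and -9.76 to -6.61 in the other 19 animals, whose median was -9.03. The -6.61 came from unequal spots of replicate 3 at 20 mg/kg/day, at -4.26 and -8.97. The probe was well above background on that 1 array alone. Against the mean of the controls, set no lower than their lowest measurable signal, this animal was at least 239-fold higher. The RT1-Bb probe that passed the filter was lowest in the same animal, at 0.40 against 1.35 to 1.74 in the other 5 at 60 mg/kg/day and 0.91 to 1.89 in controls.

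Another pair of animals was high in a block of class I genes. Replicate 2 at 0.06 mg/kg/day and control replicate 2, both on slide 1, were the highest 2 animals for 9 of 55 member probes (16.4%), and for 0.718% of all kept probes. The 9 read RT1-A1 (both probes), RT1-CE2, RT1-CE13, RT1-CE15, RT1-CE16, RT1-S2 (both probes) and RT1-T18. RT1-A1, a classical class I gene, was at 4.10 in replicate 2 and 2.94 to 3.08 in the other 3 animals at 0.06 mg/kg/day by its dimmer probe, and at 2.14, 3.80, 3.38, 3.50 and 2.62 in the controls. The pair was picked from the brighter RT1-A1 probe, which is itself 1 of the 9, and related class I probes are not independent of it. The share of members is therefore a description, and no test was made on it. The gap below the pair ran from 0.003 log2, in an RT1-S2 probe, to 0.41, in RT1-CE15.

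No member differed between doses past the threshold. limma with Benjamini-Hochberg adjustment over all 23258 kept probes called 0 member probes and 0.0% of all probes at each dose against 0 mg/kg/day, in the trend over dose order and in the joint test of the 3 doses. In order of rising dose the lowest adjusted p of a member was 1.00, 0.929 and 0.782, and it was 0.839 for the trend and 0.951 for the joint test. An unadjusted p under 0.05 was found in 0 of 55 member probes at 0.06 mg/kg/day against 3.05% of all probes, in 5 at 20 against 4.58%, and in 3 at 60 against 6.29%. The trend had 6 members, against 5.75% of all, and the joint test 6, against 3.17%. Groups did not overlap with controls in 0 member probes at 0.06 mg/kg/day (0.632% of all probes), in 3 at 20 (0.602%), which read RT1-CE12, RT1-T24-2 and Ly49si1, and in 1 at 60 (0.464%), which read Ly49si2. The 3 dose comparisons share the same 5 controls.

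**Figure D4:**
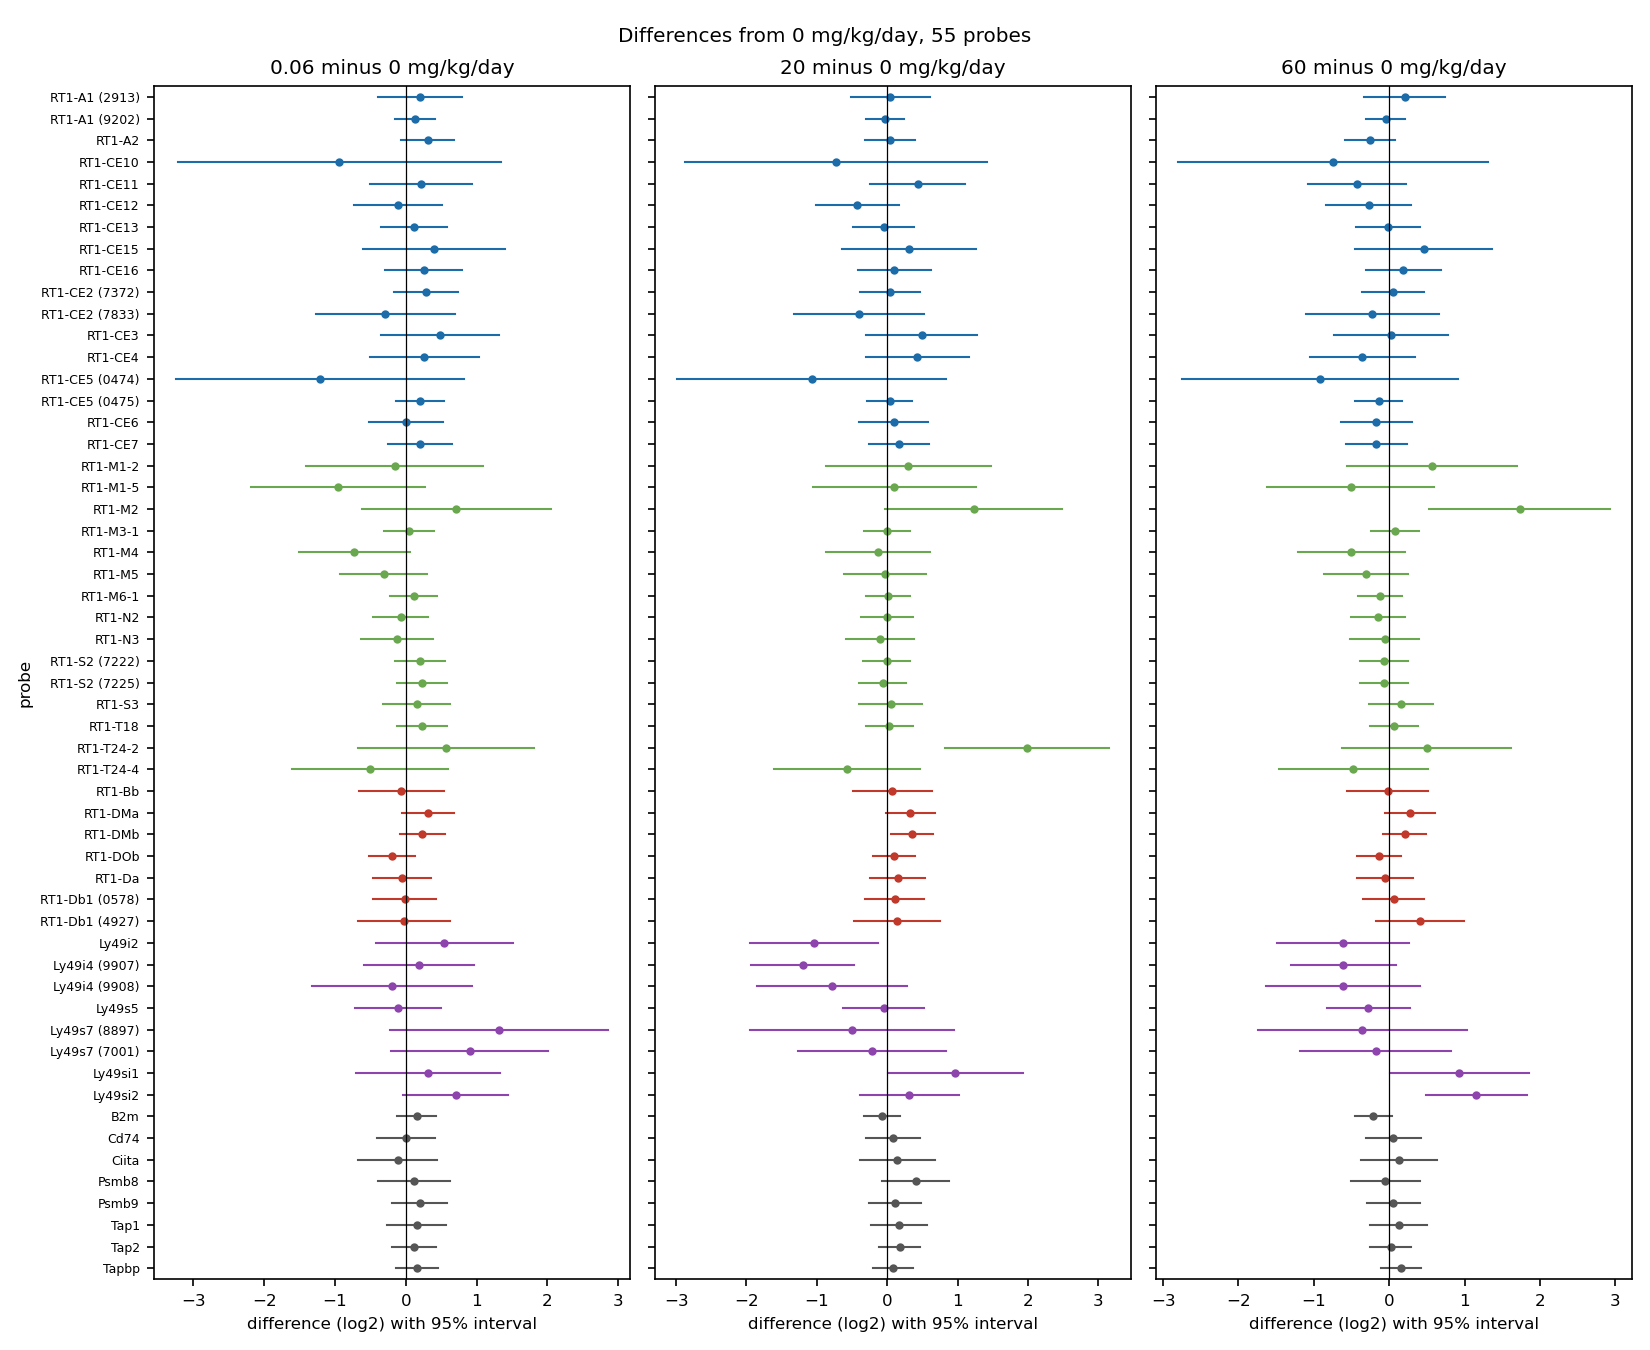
Differences (log2, dose minus 0 mg/kg/day) of the 55 kept member probes at each dose above 0 are drawn with 95% confidence intervals from limma, grouped by role. The widest intervals at each dose are those of RT1-CE10, the dimmer RT1-CE5 probe, a Ly49s7 probe and RT1-M2, and no difference passed the adjusted threshold.

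Class I genes of the A and C/E groups, which include the classical RT1-A molecules, had differences above 0 in 13 of 17 probes at 0.06, 11 of 17 at 20 and 5 of 17 at 60 mg/kg/day, against 43.6%, 57.9% and 39.7% of all probes. Their medians were 0.20, 0.04 and -0.17, against -0.03, 0.03 and -0.04 over all probes. RT1-A2 averaged 2.61 ± 0.25 at 60 mg/kg/day (SD, n = 6) and 2.86 ± 0.37 at 0 mg/kg/day (SD, n = 5), and its joint test had an unadjusted limma p of 0.0307 (0.0511 with a slide block) and an adjusted p of 0.951. Of these 17 probes 0 had an unadjusted p under 0.05 at any single dose.

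Among class I genes of the M, N, S and T groups, the largest difference at 60 mg/kg/day was that of RT1-M2. It read -4.50, -6.93, -5.30, -4.56 and -7.50 at 0 mg/kg/day and -5.62, -6.54, -4.78 and -3.23 at 0.06 mg/kg/day. It read -3.40, -4.82, -4.93, -4.74 and -4.75 at 20 mg/kg/day, and from -4.52 through a median of -4.13 to -3.25 at 60 mg/kg/day. All 6 animals at 60 mg/kg/day lay above 4 of the 5 controls, the lowest of them just under the highest control, and the 2 lowest of all animals were controls. Of these, replicate 5, at -7.50, lay below the lowest measurable signal of its array, -7.35. Replicate 2, at -6.93, was near that of its own array, -7.30. The differences below thus rest in part on controls at or near background. The difference was 0.71 ± 0.63 (SE) at 0.06, 1.23 ± 0.60 at 20 and 1.73 ± 0.57 at 60 mg/kg/day, with an unadjusted limma p of 0.274, 0.0542 and 0.00711. The trend over dose order was 0.57 ± 0.18 per step, with an unadjusted limma p of 0.00578. Within the slides the difference at 60 mg/kg/day was 1.38, 1.51 and 1.93, where the 1.51 rests on 1 control and the 1.93 on 1 animal at 60 mg/kg/day. With normexp background correction it was 0.80.

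RT1-T24-2, which RefSeq lists as a long non-coding RNA inside RT1-T24-4, read -3.10, -4.74, -6.07, -5.87 and -6.31 at 20 mg/kg/day, against -7.02, -7.11, -8.26, -6.68 and -6.96 in controls. At 0.06 mg/kg/day it read -6.00, -7.23, -6.77 and -6.54, and at 60 mg/kg/day from -7.74 through a median of -6.91 to -4.90. All 5 animals at 20 mg/kg/day lay above all controls, but 2 of them stood well above the other 3, which lay nearer to the highest control. The difference at 20 mg/kg/day had an unadjusted limma p of 0.00216. Within slides it was 3.96, 3.53 and 0.73. The 3.96 and the 3.53 rest on 1 animal each at 20 mg/kg/day, the 2 high ones, and the 3.53 is set against 1 control that was not well above background. With normexp the difference over all arrays was 0.71. RT1-T24-4 itself showed no such pair of animals.

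Of the other genes in these groups, RT1-M4 differed by -0.73 ± 0.37 (SE) at 0.06 mg/kg/day with an unadjusted limma p of 0.0659. Fitted with a slide block it was -0.62, with an unadjusted limma p of 0.0205, and leaving out replicate 3 of that dose gave -0.42. The sign did not hold with normexp, where the difference was 0.01, and RT1-M4 is one of the probes that differed between slides. RT1-M3-1, whose mouse counterpart presents formylated peptides, ranged from -1.26 to -0.46 over the 20 animals. RT1-S3, akin to the mouse Qa-1 molecule that engages natural killer receptors, ranged from 0.67 to 2.12. Neither had an unadjusted p under 0.05 in any comparison.

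Class II probes had SDs over the 20 animals of 0.24 to 0.48, and a median SD within dose groups of 0.301, against 0.275 over all kept probes. Their differences were above 0 in 2 of 7 probes at 0.06, 7 of 7 at 20 and 4 of 7 at 60 mg/kg/day, against 43.6%, 57.9% and 39.7% of all probes. The medians were -0.02, 0.13 and 0.06, against -0.03, 0.03 and -0.04 over all probes. RT1-DMb, a subunit of the chaperone that loads peptides onto class II, read -0.42, -0.89, -0.69, -0.60 and -1.01 at 20 mg/kg/day, against -1.10, -0.94, -0.94, -1.32 and -1.08 in controls. Of the 5 dosed animals 4 lay above every control, and the fifth was within their range. The difference was 0.35 ± 0.14 (SE), with an unadjusted limma p of 0.0225. RT1-DMa, the other subunit, differed by 0.31 ± 0.17 at 0.06, 0.33 ± 0.16 at 20 and 0.28 ± 0.16 at 60 mg/kg/day (SE), with 0 of these at an unadjusted limma p under 0.05. With slide as a block the difference at 20 mg/kg/day was 0.37, with an unadjusted limma p of 0.0172, and without control replicate 4 that at 0.06 mg/kg/day was 0.18. RT1-DOb, a subunit of the molecule that modulates it, had all values between -5.27 and -4.56.

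The Ly49 probes were the most variable and held the smallest p at 60 mg/kg/day. Most were dim: 2 of the 8 kept probes were well above background on all 20 arrays, those of Ly49si1 and Ly49si2, whose names mark receptors with both stimulatory and inhibitory features. Ly49si2 read -4.68, -4.37, -4.90, -4.56 and -5.29 at 0 mg/kg/day and -4.87, -4.75, -3.15 and -3.46 at 0.06 mg/kg/day. It read -3.75, -4.97, -4.04, -5.04 and -4.42 at 20 mg/kg/day, and from -4.01 through a median of -3.69 to -2.99 at 60 mg/kg/day. All 6 animals at 60 mg/kg/day lay above all 5 controls, while the groups at 0.06 and 20 mg/kg/day overlapped with both. The difference was 0.70 ± 0.35 (SE) at 0.06, 0.32 ± 0.33 at 20 and 1.15 ± 0.32 at 60 mg/kg/day, so the middle dose had the smallest value. The unadjusted limma p was 0.00195 at 60 mg/kg/day. Within the slides the difference at 60 mg/kg/day was 0.77, 1.29 and 1.64, where the 1.29 rests on 1 control and the 1.64 on 1 animal at 60 mg/kg/day. With normexp it was 0.79. Without replicate 3 at 0.06 mg/kg/day the difference at that dose was 0.40.

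Ly49si1 read -4.80, -3.77, -4.21, -3.54 and -4.33 at 0 mg/kg/day and -5.10, -4.58, -3.13 and -2.47 at 0.06 mg/kg/day. It read -3.19, -3.47, -2.89, -2.85 and -3.43 at 20 mg/kg/day, and from -4.08 through a median of -3.31 to -1.79 at 60 mg/kg/day. The 5 animals at 20 mg/kg/day formed the tightest group and lay above all controls though the nearest pair was almost level. Those at 60 mg/kg/day overlapped with controls. The difference was 0.31 ± 0.49 (SE) at 0.06, 0.97 ± 0.46 at 20 and 0.93 ± 0.44 at 60 mg/kg/day, with an unadjusted limma p of 0.531, 0.0488 and 0.0471. Fitted with a slide block the difference at 20 mg/kg/day was 0.75, with an unadjusted limma p of 0.0674. It is given at 20 mg/kg/day because its groups did not overlap, a choice made after its values were seen.

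Ly49i4 and Ly49i2, inhibitory receptors, had negative differences at 20 and 60 mg/kg/day. Ly49i4 by its brighter probe read -6.38, -7.76, -6.50, -7.24 and -6.48 at 20 mg/kg/day, against -5.95, -5.85, -6.42, -4.77 and -5.34 in controls. Only the least low animal at 20 mg/kg/day reached the lowest control. The probe was well above background on 1 of 5 arrays at 20 mg/kg/day and on 5 of 5 control arrays. At 0.06 mg/kg/day the values were -6.12, -5.11, -5.09 and -5.58, and at 60 mg/kg/day they ran from -7.27 through a median of -6.19 to -5.59. The difference was 0.19 ± 0.37 (SE) at 0.06, -1.20 ± 0.35 at 20 and -0.61 ± 0.33 at 60 mg/kg/day, with an unadjusted limma p of 0.00274 at 20. With normexp it was -0.28 at the middle and -0.06 at the top dose, and without control replicate 4 it was -0.38 at 60 mg/kg/day. The dimmer Ly49i4 probe, well above background on 8 arrays, differed by -0.20 ± 0.54, -0.78 ± 0.51 and -0.62 ± 0.49 (SE) at the rising doses. Ly49i2 differed by -1.04 ± 0.44 at 20 mg/kg/day (SE), with an unadjusted limma p of 0.0279, again with 1 of 5 dosed and 5 of 5 control arrays above background, and by -0.09 with normexp. It differed by 0.55 ± 0.46 with 0.06 mg/kg/day and by -0.61 ± 0.42 with 60 mg/kg/day (SE).

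Ly49s7, a stimulatory receptor read by a pair of probes, was high in single animals. Its brighter probe read -5.90, -2.98, -4.34 and -5.55 at 0.06 mg/kg/day, against -6.24, -5.73, -6.31, -5.35 and -4.34 in controls. Replicate 2 at 0.06 mg/kg/day was the highest of all animals by 1.36 log2, and the next ones, a control among them, were level with each other. The difference at 0.06 mg/kg/day was 0.90 ± 0.53 (SE) by this probe and 1.32 ± 0.73 by the dimmer one, which was well above background on 11 arrays, and without that animal the dimmer probe's difference was 0.81.

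**Figure D5:**
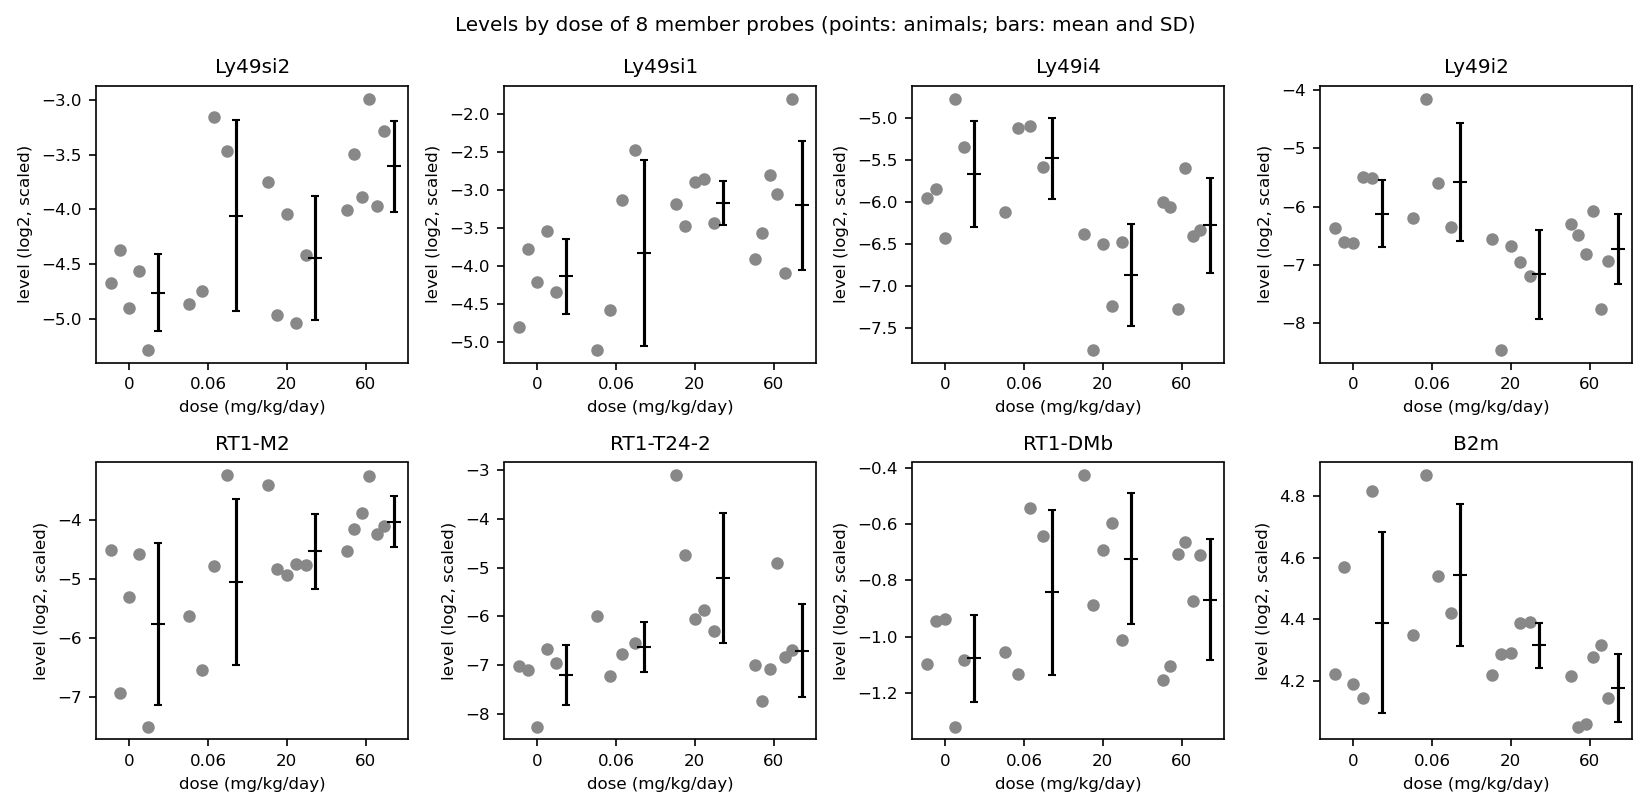
Levels (log2 relative to the array's 75th percentile) of Ly49si2, Ly49si1, Ly49i4, Ly49i2, RT1-M2, RT1-T24-2, RT1-DMb and B2m are plotted for each animal by dose in mg/kg/day, with the mean and SD of each group (n = 5, 4, 5 and 6 at 0, 0.06, 20 and 60). Ly49si2 at 60 mg/kg/day lies above all controls, RT1-T24-2 at 20 mg/kg/day does so with 2 animals far above the rest, and B2m spans less than 1 log2 in all.

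The partners had a median SD within dose groups of 0.288, against 0.275 over all kept probes. B2m, the light chain of class I molecules, read 4.22, 4.57, 4.19, 4.15 and 4.82 at 0 mg/kg/day and 4.35, 4.87, 4.54 and 4.42 at 0.06 mg/kg/day. It read 4.22, 4.29, 4.29, 4.39 and 4.39 at 20 mg/kg/day, and from 4.05 through a median of 4.18 to 4.32 at 60 mg/kg/day. The groups overlapped, with the 2 highest animals a control and one at 0.06 mg/kg/day. The difference was -0.21 ± 0.12 (SE) at 60 mg/kg/day and the trend -0.09 ± 0.04 per dose step, with an unadjusted limma p of 0.0352. Without control replicate 5 they were -0.10 and -0.05, and a slide block brought the limma p of the trend to 0.0525, unadjusted.

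Psmb8, a subunit of the immunoproteasome, had the largest partner difference, 0.40 ± 0.23 (SE) at 20 mg/kg/day, with 0.12 at 0.06 and -0.05 at 60 mg/kg/day. Psmb9, another such subunit, differed by 0.19, 0.11 and 0.06 at the rising doses. Tap1 and Tap2, the subunits of the peptide transporter, differed by 0.15 and 0.11 at 0.06, 0.17 and 0.18 at 20, and 0.13 and 0.02 at 60 mg/kg/day. Tapbp, which docks class I to that transporter, differed by 0.16, 0.08 and 0.15 at the rising doses. Cd74, the invariant chain of class II, differed by 0.00, 0.08 and 0.05 and Ciita, the class II coactivator, by -0.11, 0.15 and 0.13. Of all these 0 had an unadjusted p under 0.05 at any dose, while with slide as a block Psmb8 at 20 mg/kg/day differed by 0.41, with an unadjusted limma p of 0.0420. With 1 array left out, the sign of at least 1 of these differences turned for Cd74, Ciita, Tap1, Tap2, Psmb8 and Psmb9.

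Pairs of members were compared over the 20 animals. Correlations were computed for 1378 pairs of 53 member probes, leaving out the 2 probes with a jump, and tested with 100000 permutations (two-sided) and Benjamini-Hochberg adjustment over the pairs. Of these, 126 positive and 6 negative pairs had an adjusted p under 0.05 for Pearson's r. The share among pairs of other probes was not counted, so whether these numbers are unusual for this array cannot be told. The permutations moved animals across slides and doses, so a shared effect of either can add to r. Since the pairs printed here were taken by role or by size of r, they stand as a description.

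The class II chains RT1-Bb and RT1-Db1 had r = 0.867 and Spearman's rho = 0.922 over 20 animals (permutation p = 1e-05 for each, the smallest possible; adjusted 0.000431 and 0.000919). Without the 2 animals farthest from the median of RT1-Bb r was 0.954, and within the 3 slides 0.834 to 0.983. In every pair these 2 animals were chosen by 1 of its probes alone. Cd74 had r = 0.857 and rho = 0.782 with RT1-Da (permutation p = 2e-05 and 0.00015, adjusted 0.000689 and 0.00559), r = 0.784 without the 2 farthest animals, and 0.512 to 0.977 within slides. With Ciita, Cd74 had r = 0.535 and rho = 0.568 (permutation p = 0.0155 and 0.00961, adjusted 0.103 and 0.0963), 0.414 without the 2 farthest, and 0.122 to 0.983 within slides, so this pair did not pass.

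B2m went with RT1-A2, at r = 0.853 and rho = 0.820 (permutation p = 1e-05 for each, adjusted 0.000431 and 0.000919), 0.776 without the 2 farthest animals, and 0.853 to 0.914 within slides. With the dimmer RT1-A1 probe it had r = 0.149 and rho = -0.119 (permutation p = 0.522 and 0.617, adjusted 0.794 and 0.875), -0.375 without the 2 farthest, and -0.811 to 0.686 within slides. With the brighter RT1-A1 probe B2m had r = 0.646 and rho = 0.514 (permutation p = 0.00296 and 0.0226, adjusted 0.0341 and 0.165). There r was 0.505 without the 2 farthest, and 0.0718 to 0.904 within slides. In these pairs, in the order given, the 2 farthest were chosen by RT1-A2, the dimmer RT1-A1 probe and B2m. The values without them are therefore not directly comparable. Over all animals the RT1-A1 probes differed in their r with B2m, and this difference was not tested. RT1-A1 by its dimmer probe went with RT1-CE15, at r = 0.958 and rho = 0.919 (permutation p = 1e-05 for each, adjusted 0.000431 and 0.000919), 0.904 without the 2 farthest, and 0.867 to 0.978 within slides. RT1-A1 and RT1-CE15 are not among the genes whose annotated spans are nested, but whether either probe reads a near copy was not tested.

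RT1-CE4 and RT1-CE11 had r = 0.936 and rho = 0.922 (permutation p = 1e-05 for each, adjusted 0.000431 and 0.000919), 0.882 without the 2 farthest, and 0.953 to 0.994 within slides. Ly49i2 and Ly49i4 had r = 0.825 and rho = 0.884 (permutation p = 3e-05 and 1e-05, adjusted 0.000899 and 0.000919), 0.778 without the 2 farthest, and 0.836 to 0.894 within slides.

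Of the 6 pairs of probes without a jump that read the same gene, 5 had r of 0.760 to 0.935 over 20 animals: Ly49s7, RT1-S2, RT1-Db1, RT1-A1 and Ly49i4, each with an adjusted permutation p for r of at most 0.00313. The RT1-CE5 pair was left out because its dimmer probe had a jump, which its other probe did not follow. The 2 probes of RT1-CE2 had r = -0.155 and rho = -0.141 (permutation p = 0.51 and 0.549, adjusted 0.787 and 0.843), -0.334 without the 2 farthest and -0.356 to 0.0650 within slides. RT1-CE2 by the brighter of them went with RT1-S2, at r = 0.955.

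The genes that work with the members were looked at in lists. Of 22 genes of antigen processing 20 were measured, and 0 were called at any dose. At an unadjusted p under 0.05, 1 was lower at 0.06 mg/kg/day (1.62% of all probes), 4 were higher at 20 (2.73%) and 3 higher at 60 (2.81%). The one at 0.06 mg/kg/day was Nfya, a subunit of the factor that binds the Y box, with -0.24 ± 0.10 (SE). Psmb10, an immunoproteasome subunit, differed by 0.33 ± 0.13 and Psme2, a proteasome activator subunit, by 0.27 ± 0.11 at 20 mg/kg/day. Ifi30, the thiol reductase of the class II pathway, differed by 0.35 ± 0.13 and Psme2 by 0.23 ± 0.10 at 60 mg/kg/day. The medians of the list were 0.06 at each of 0.06 and 20 mg/kg/day and 0.00 at 60 mg/kg/day, against -0.03, 0.03 and -0.04 over all probes.

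Of 26 interferon response genes 22 were measured and 0 were called. The difference was above 0 in 17 of 22 at 20 mg/kg/day, with a median of 0.13 against 0.03 over all probes, and 0 of them had an unadjusted p under 0.05. It was above 0 in 13 of 22 at 0.06 and 10 of 22 at 60 mg/kg/day. At an unadjusted limma p under 0.05, 2 of 22 were lower at 60 mg/kg/day, against 3.48% of all probes. They were Cxcl10, a chemokine, with -0.50 ± 0.22 and Oas1a, an antiviral enzyme, with -0.60 ± 0.28 (SE). Of 21 genes for other natural killer receptors and their partners 10 were measured and 0 called. Their differences were above 0 in 5 of 10 at 0.06, 9 of 10 at 20 and 3 of 10 at 60 mg/kg/day. The medians were -0.07, 0.15 and -0.19. At an unadjusted limma p under 0.05, 2 of 10 were lower at 60 mg/kg/day, against 3.48% of all probes. They were Klri2 and Klrb1c, lectin-like receptors, with -1.01 ± 0.41 and -1.03 ± 0.42 (SE) and an unadjusted limma p of 0.0247 and 0.0258.

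Marker genes of immune cells were measured in the same animals, and their part in the results was not tested. Over all probes 43.6%, 57.9% and 39.7% of differences were above 0 at the rising doses, with medians of -0.03, 0.03 and -0.04. All 12 macrophage and monocyte markers were measured, and 10 of 12 differences were above 0 at 0.06, 11 of 12 at 20 and 11 of 12 at 60 mg/kg/day, with medians of 0.25, 0.44 and 0.53. Their mean level ranged from -1.14 to -0.39 at 0, -1.36 to -0.13 at 0.06, -0.76 to -0.19 at 20 and -0.88 to -0.03 at 60 mg/kg/day, so the groups overlapped. At an unadjusted limma p under 0.05, 0 of 12 were higher at 0.06, 3 at 20 and 6 at 60 mg/kg/day. This compares with 1.43%, 2.73% and 2.81% of all probes, and 0 of 12 were lower at any dose. Lyz2, the macrophage lysozyme, differed by 0.53 ± 0.21 and Aif1, another macrophage marker, by 0.61 ± 0.24 at 60 mg/kg/day (SE). Of natural killer markers 6 of 11 were measured, and the defining Ncr1, Klrd1, Klrb1 and Klrc1 did not pass the filter on dim probes. The 6 measured ones all had a negative difference at 60 mg/kg/day, with a median of -0.40 and a mean level of -2.29 to -1.75, against -2.02 to -1.12 in controls. Differences were above 0 in 2 of these 6 at each of 0.06 and 20 mg/kg/day, with medians of -0.04 and -0.21. T cell markers, 7 of 10 measured, had medians of -0.02, 0.07 and 0.01 at the rising doses. B cell markers, 3 of 6, had 0.19, -0.27 and -0.22, dendritic cell markers, 4 of 7, had -0.28, 0.20 and -0.24, and endothelial markers, 5 of 5, had 0.05, -0.11 and -0.24. Of all these lists 0 genes were called by limma at any dose.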

How the data were processed

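Per the labels, 100 ng of ovary RNA was labelled with Cy3 for each of 20 animals and read on 1-colour Agilent arrays, and groups follow the labelled dose. Per the file headers, spot intensity was extracted with Feature Extraction 11.5.1.1, and the deposited processed signal is a linear intensity after background correction; median pixel and local background intensity stand beside it. The authors also deposited a series table of log2 values. Its columns had medians between -0.072 and 0.0822, and their deviations followed the scanner values with r of 0.946 to 0.991, so its scale and direction match those, and the baseline used for centring is unknown. How the submitters normalized it is not given in the sources used here.

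Here log2 processed signal minus the array's 75th percentile over non-control spots was used, spots flagged as outliers were left out, and spots of a probe were averaged; 32 probes with no spot left were dropped. Of the probes, 18737 had 1 RefSeq symbol by accession, 0 several and 11598 none. The array design names another build than GRCr8, so gene positions are not printed, and the promoter windows alone carry GRCr8 coordinates. limma 3.58.1 in R 4.3.3 fitted the group means to all 20 arrays (16 residual degrees of freedom before moderation). Correlations and figures used Python 3.11.15. The scripts were tested on simulated data. Columns of other series numbered 0.

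The members, the lists and the rules were chosen with earlier results of these data known. Genes were named if they were partners, had a jump between animals, were among the 4 RT1- or Ly49 probes of smallest p in a comparison, or among the 2 of smallest p in a list; RT1 levels could be given besides, and others were chosen after their values were seen. Alternatives were quantile normalization, normexp background correction (offset 50, on the median pixel signal because the mean was not used here), 2 other filters, slide or replicate number as a block, the deposited table, each array left out, and other limits for a jump. Deviations of animals with the same replicate number in different groups had r of -0.36 to 0.47 over 27 pairs, 8 of them over 0.1. Pairs with different numbers were not set beside them and slide was not removed. Whether the numbers pair animals was therefore not tested. The number of arrays limits the precision.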

Additional observations from a re-analysis of the deposited data

Results flagged for a closer look

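In 13 of 220 combinations of member probe and dose group (5.91%) 1 animal stood apart from its group by Dixon's criterion, whose nominal rate is about 1 in 20. The share over all kept probes was not counted, and probes of related copies are not independent of each other. The count is therefore a description. At 60 mg/kg/day, replicate 3 was low for RT1-CE5 (dimmer probe), at -6.38 with the others at -2.83 to -1.95, and for RT1-Bb, at 0.40 with the others at 1.35 to 1.74. Replicate 4 at 60 mg/kg/day was high for RT1-T24-2, at -4.90 with the others at -7.74 to -6.69. At 20 mg/kg/day, replicate 5 was high for RT1-CE4, at 1.14 with the others at 0.36 to 0.55, and low for RT1-CE12, at -3.57 with the others at -3.05 to -2.89. Replicate 3 at 20 mg/kg/day was high for RT1-CE10, at -1.37 with the others at -3.31 to -2.98. Replicate 1 at 20 mg/kg/day was high for RT1-M2, at -3.40 with the others at -4.93 to -4.74. At 0.06 mg/kg/day, replicate 2 was high for both RT1-A1 probes, at 4.10 and 5.37, and for RT1-T18, at 2.39 with the others at 1.72 to 1.79. Replicate 5 at 0.06 mg/kg/day was high for RT1-N3, at -1.13 with the others at -2.09 to -1.94. Among controls, replicate 1 was low for RT1-CE6, at -6.76 with the others at -5.68 to -5.42, and replicate 3 for RT1-T24-2, at -8.26, where it was not well above background.

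Outside the filter on dim probes, the second RT1-Bb probe gave 0.49 in replicate 3 at 60 mg/kg/day. Ly49i7 gave -6.16 in replicate 2 at 0.06 mg/kg/day, with the other animals at -8.82 to -6.50; it was well above background on 3 arrays, none of them a control. The causes were not tested.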

How the results depend on the processing

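limma called 0 member probes, and 0 genes of the lists, in every alternative and with each array left out. The calls were also 0 with replicate number as a block, where members at an unadjusted p under 0.05 numbered 0, 5 and 3 at the rising doses, 5 in the trend, and 3 in the joint test against 6 without it. Of the 16 differences named for their small p, 15 kept their sign in all alternatives; the exception is RT1-M4 under normexp. Main counts below are out of 55 member probes, those with no filter out of 66, and those among probes well above background on all arrays out of 42. The share of all probes at an unadjusted p under 0.05 was not counted under the alternatives. Members at an unadjusted p under 0.05 at 60 mg/kg/day numbered 3, with 5 under normexp and 6 with no filter on dim probes, and 2 to 5 with an array left out, 5 without control replicate 2 or 3. At 20 mg/kg/day they numbered 5, with 8 unfiltered and 2 among probes well above background on all arrays, and 3 to 6 with an array left out, 3 without replicate 1 or 2 of that dose. For 0.06 mg/kg/day they numbered 0, with 4 under normexp, 3 unfiltered, and 1 each with quantile normalization, slide as a block and the deposited table. There they ran from 0 to 4 with an array left out: 4 without control replicate 2 or 5 or replicate 1 at 0.06 mg/kg/day, 3 without its replicate 5, and 2 without its replicate 2 or control replicate 3. Among probes well above background on all arrays the trend had 3 members and the joint test 2, against 6 each, and both ran from 4 to 8 with an array left out. Jumps between animals numbered 2, with 4 under quantile normalization, 1 each under normexp, with only the brightest probes or with 3 animals required on each side, and 5 with 1 animal allowed, which was chosen after seeing the data. They ran from 1 to 3 with an array left out, 1 without replicate 3 at 0.06 or at 60 mg/kg/day, since RT1-CE10 then has 1 animal below its gap. Other causes were not tested. Of the remaining comparisons with alternatives, 3428 were labelled the same and 18 moved, by rules that differed between results. A list median was set against the spread of its list. A named difference counted as the same while its adjusted p stayed at 0.05 or more, even where its sign turned. Of 48 named differences, partners included, 32 kept their sign in all alternatives. Dim Ly49 and RT1-M probes are limited by signal over background.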
